A study of Rattus norvegicus with 108 samples.

Results

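Ferritin, the protein that stores iron inside cells, was represented by 3 genes of the 19127 in the deposited count tables of single cells from the rat dentate gyrus. The genes were taken by symbol: Fth1, which encodes the heavy chain, and Ftl1 and Ftl1l1, both listed as light chain genes. The study compared fluoxetine, a selective serotonin reuptake inhibitor, with water in the dorsal (dorDG) and the ventral (venDG) dentate gyrus of the hippocampus, using droplet 3′ libraries with molecular identifiers (UMIs). All animals were male Long-Evans rats from Charles River, aged 2 months, given fluoxetine at 18 mg/kg (FT) or water (Sham) for 6 weeks, and each replicate was a pool of 3 animals. The dorDG FT group had 4 replicates (numbered 1, 2, 4 and 5), and the dorDG Sham, venDG FT and venDG Sham groups had 5 each. The labels speak of nuclei, whereas the study's methods describe whole-cell and nuclear suspensions, and neither says which library held which.

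Ferritin is a hollow shell assembled from heavy and light chains. The heavy chain oxidises ferrous iron so that it can be deposited, and the light chain favours the formation of the mineral core inside the shell. Both messages carry an iron-responsive element near their 5′ end, a hairpin to which iron regulatory proteins bind when iron is scarce, which holds back translation, so the level of the message does not by itself give the level of the protein. In the brain, oligodendrocytes and microglia are known for high iron and ferritin content.

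Of the 3 genes only Ftl1l1 was found in the table of start-site windows used here, which spans the bases around each RefSeq gene start on the GRCr8 assembly. The last 30 bases of its window are shown because they lie in the transcribed part and hold the letters CAGTGT, which include the loop of the iron-responsive element. They are at chrX:136687584-136687613 on the minus strand, with CAGTGT in capitals:
Ftl1l1: gaggatctgtatcttgcttcaaCAGTGTtt
The 6 letters alone are common, being present on either strand in 6106 of 33469 windows (18.2%). The final 18 bases were present in 3 windows only, those of Ftl1l1, LOC102549852 and LOC120096723. The match is a description of these letters, and no function was tested.

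Rat ferritin light chain genes exist as many near-identical copies, so reads may be divided between rows or lost. On GRCr8, RefSeq lists 30 ferritin entries, of which 23 are light chain entries and 20 are pseudogenes. Only 6 of them had a row in the deposited tables. Besides the 3 members these were LOC100359668 (Ftl1l2 in RefSeq) with 1631 UMIs, LOC100360087 with 192 and LOC100363177 (the pseudogene Ftl1-ps14) with 81. Which locus gave the reads of Ftl1, Ftl1l1 and these rows is therefore uncertain, and Ftl1 and Ftl1l1 are given apart and, where stated, summed as light chain UMIs.

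In the 3347 cells used, the members held 73532 UMIs, of which Fth1 made up 92.7%. Fth1 had 68162 UMIs, or 46.5 per 10000 UMIs, and was seen in 95.1% of cells. Ftl1l1 followed with 4157 UMIs (2.84 per 10000) and Ftl1 with 1213 (0.828 per 10000), so that Ftl1l1 made up 77.4% of the light chain UMIs of the members. These UMIs are counts of 3′ ends that are not scaled to length, and the copies can lose reads, so the Fth1 share of ferritin UMIs is compared between samples and not read as a ratio of chains.

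Replicates held 42 to 384 cells and 220162 to 1523537 UMIs. Replicates 1 and 2 of each group came from 2 reactions, 27 reactions in all. A reaction is here a set of libraries that share a name in the labels. First and second follow the order of these names, and whether the runs had that order is not known. The second stood apart in all 8 replicates with 2 reactions. It had 0.64 to 1.53% of UMIs from cytosolic ribosomal protein genes, against 5.09 to 5.98% in the first. Cells with under 2% of such UMIs, called ribosomal-low here, were 1226 of the 3347 (36.6%). They made up 14.5 to 42.1% of cells in dorDG FT replicates and 31.9 to 72% in dorDG Sham, and 16.9 to 50.3% in venDG FT and 18.9 to 61.9% in venDG Sham. Among 3338 distinct cell barcodes, 9 occurred in 2 or more reactions.

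The dorDG cells carried the authors' type labels, which were checked against marker lists. The labels Microglia1, Microglia2, Oligodend1, Oligodend2, OPC (oligodendrocyte precursors), Endothelial, AstroSub1 and ExcitNeuron had every marker of their type at 2-fold or more over the median type, and BergGlia had 8 of 9 astrocyte markers. Cells labelled Mossy went against their label, with 8 of 8 mural and 7 of 8 endothelial markers at that level, 0 of 5 excitatory markers and 1 of 6 granule cell markers. Cells labelled InhibNeuron had 2 of 8 inhibitory markers, with Slc32a1 and Lhx6 at 0, and 5 of 5 excitatory ones. Cells labelled Granule had 4 of 6 granule cell markers, 7 of 8 inhibitory and 3 of 5 excitatory markers, and also 5 of 5 erythroid markers, whose summed level was 1129 UMIs per 10000 against 3.08 to 27.2 in the other types. The authors' labels are kept below as names only.

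Fth1 was counted in every dorDG type and was highest in the oligodendrocyte and microglia labels. Levels by type are means over replicates with at least 5 cells, in UMIs per 10000, and since the cells were grouped on these same genes they are given with no test. In Oligodend2 Fth1 was 91.9 ± 17.8 (SD, n = 7), with a lowest value of 70.7, a median of 92.8 and a highest of 119. In Microglia1 it was 76.5 ± 16.5 (SD, n = 9), ranging from 54 to 104 around a median of 77. Oligodend1 had 68.1 ± 21.2 (SD, n = 9) and Microglia2 64.3 ± 28.9 (SD, n = 9), and both spread widely, from 31.1 to 99 and from 14.9 to 110.5. The other glial and vascular labels lay in the middle, with 50.5 ± 14.9 in BergGlia (SD, n = 4), 48.6 ± 20.4 in Mossy (SD, n = 7), 42.5 ± 21.2 in Endothelial (SD, n = 9) and 40.5 ± 20.4 in AstroSub1 (SD, n = 8). OPC followed with 34.5 ± 19.9 (SD, n = 7) and Granule with 28 ± 20.7 (SD, n = 9). The lowest were InhibNeuron with 24.2 ± 10.8 (SD, n = 6) and ExcitNeuron with 18.4 ± 15.3 (SD, n = 4). For none of the 11 neighbouring pairs in this order was the gap larger than the larger of both SDs, so only types far apart in the order differed beyond their spread.

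The light chain rows had a different order, led by both microglia labels. Ftl1l1 was 11.2 ± 5.34 in Microglia1 (SD, n = 9), with a lowest value of 3.45, a median of 10.9 and a highest of 19.9, and 9.34 ± 9.51 in Microglia2 (SD, n = 9), where it ran from 0 to 32.6 around a median of 6.27. Oligodend2 had 5.68 ± 2.09 (SD, n = 7), Mossy 3.33 ± 1.64 (SD, n = 7), Oligodend1 2.74 ± 1.2 (SD, n = 9) and Endothelial 2.05 ± 1.43 (SD, n = 9). At the other end, AstroSub1 had 0.266 ± 0.281 (SD, n = 8), ExcitNeuron 0.119 ± 0.0989 (SD, n = 4) and InhibNeuron 0.111 ± 0.159 (SD, n = 6). Only the step from Oligodend2 to Mossy, 1 of 11 neighbouring pairs, was larger than the larger SD.

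Ftl1 was also led by the microglia labels. It was 2.81 ± 1.85 in Microglia1 (SD, n = 9), from 0.398 to 5.35 around a median of 2.07, and 2.16 ± 2.55 in Microglia2 (SD, n = 9), from 0 to 8.26 around 1.18. Oligodend2 had 1.84 ± 1.04 (SD, n = 7), Mossy 1.45 ± 0.865 (SD, n = 7), Endothelial 0.904 ± 0.758 (SD, n = 9) and Oligodend1 0.669 ± 0.43 (SD, n = 9). In InhibNeuron the mean was 0.0529 ± 0.0607 (SD, n = 6). No Ftl1 UMI was counted among the 49756 UMIs of the 43 BergGlia cells, which allows up to 0.603 per 10000 (3 counts, counting error only). Among neighbouring pairs 1 of 11, ExcitNeuron over InhibNeuron, had a gap larger than the larger SD.

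**Figure D1:**
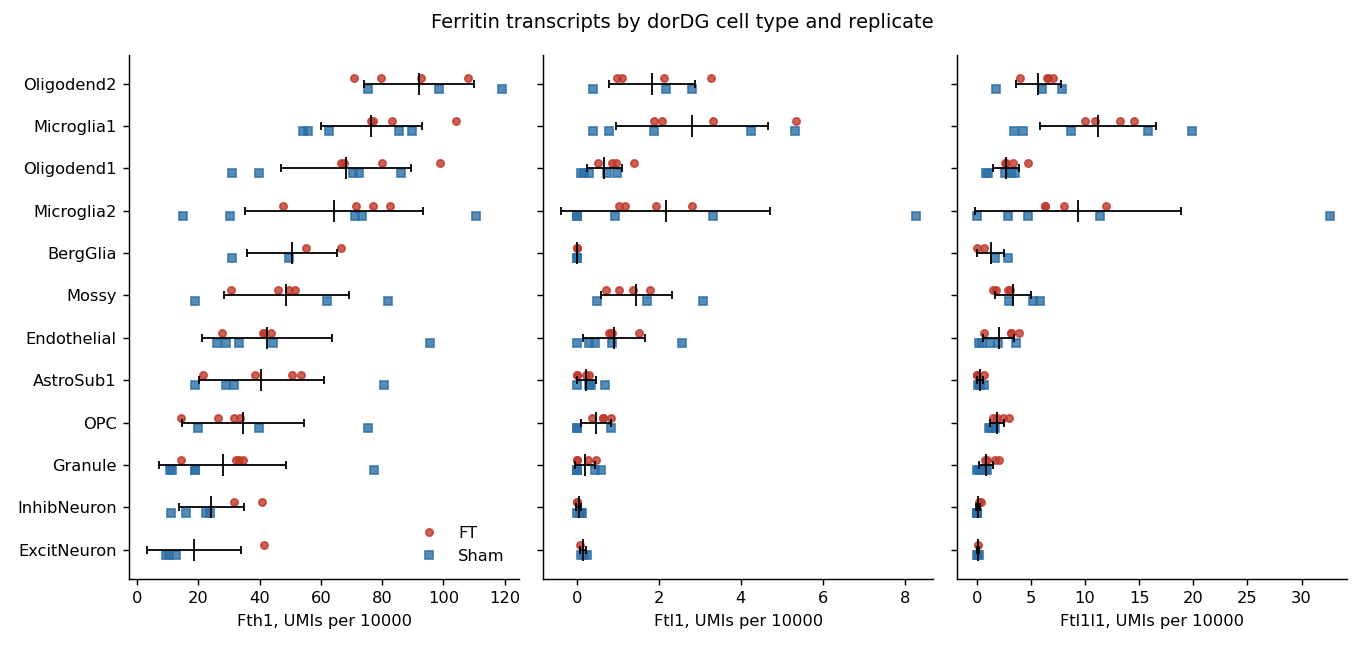
UMIs per 10000 of Fth1, Ftl1 and Ftl1l1 (horizontal axes, one panel each) in the dorDG types (vertical axis), with a point for each FT or Sham replicate of at least 5 cells and the mean ± SD over replicates. Fth1 was highest in Oligodend2 (91.9 ± 17.8) and lowest in ExcitNeuron (18.4 ± 15.3), while Ftl1 and Ftl1l1 were highest in Microglia1.

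Put as shares, the microglia labels held 16% of all dorDG UMIs but 24% of those of Fth1, 44% of Ftl1 and 52.3% of Ftl1l1. The oligodendrocyte labels held 21.2% of all UMIs, 34.7% of Fth1, 26.8% of Ftl1 and 26.9% of Ftl1l1. InhibNeuron and ExcitNeuron together held 23.3% of all UMIs, 10.8% of Fth1, 2.07% of Ftl1 and 0.666% of Ftl1l1. The Fth1 share of ferritin UMIs accordingly was 85.4 ± 4.8% in Microglia1 (SD, n = 9) and 99.3 ± 0.492% in InhibNeuron (SD, n = 6).

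At equal depth the share of cells with an Ftl1l1 UMI was again highest in Microglia1, Oligodend2 and Microglia2, while other types changed places. OPC, for instance, went from 50.6 to 12.9% and Oligodend1 from 40.4 to 20.1%. With each cell thinned to 1000 UMIs, which left out 142 cells and kept 1147, an Ftl1l1 UMI was found in 61.5% of Microglia1 cells and 0.68% of InhibNeuron cells (86% and 6.12% before thinning, at median depths of 6669 and 5846 UMIs per cell). Ferritin is made in all cell types, so none could serve as a background for free RNA. The summed level of the 9 oligodendrocyte markers was 44.8 to 107 UMIs per 10000 in the 10 types without an oligodendrocyte label, against 485 in Oligodend2 and 522 in Oligodend1, and the part of free RNA in the ferritin levels of any type was not tested.

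The share of ribosomal-low cells moved with these levels. It was 79.8% in Granule, 79.6% in InhibNeuron and 80% in ExcitNeuron, against 9.35% in Microglia1, 12.6% in Oligodend2 and 7.78% in Endothelial. Oligodend1, with 50.9% of such cells, had the third highest Fth1 level, and Endothelial, with the lowest share, was in the middle. Within Oligodend1, Fth1 was 84 ± 13.2 in cells with at least 2% ribosomal UMIs (SD, n = 7). In its ribosomal-low cells it was 30.6 ± 32.8 (SD, n = 6). The part of this share in the order of the types was not tested. Among cells with at least 2% ribosomal UMIs, Fth1 was again highest in Oligodend2 (98) and then Oligodend1 (84), and InhibNeuron was at 43.6 ± 8.68 with 2 replicates left. Over all dorDG cells, Fth1 was 61 ± 17.9 in cells with at least 2% ribosomal UMIs and 27.9 ± 26.2 in ribosomal-low cells (SD, n = 9 replicates), and Ftl1l1 was 4.62 ± 3.1 and 0.274 ± 0.281. In venDG the pairs were 52.5 ± 5.29 and 16.3 ± 10.7 for Fth1, and 4.06 ± 2.49 and 0.242 ± 0.268 for Ftl1l1 (SD, n = 10).

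In the cells labelled Granule, a few cells rich in hemoglobin transcripts carried much of the light chain. Of 119 cells, 9 had at least 10% of their UMIs from the erythroid markers, and these held 18.9% of the UMIs of the type but 17 of its 36 Ftl1l1 UMIs and 5 of its 10 Ftl1 UMIs. Pooled, they had 2.18 Ftl1l1 UMIs per 10000 against 0.571 in the other 110 cells. For Fth1 the pooled order was the opposite, 27.9 against 37.5, but dorDG Sham replicate 2 held 800 of the 1466 Fth1 UMIs of the type. Over 8 replicates the other cells had a mean of 28.3 ± 24.5 (SD) and a median of 19.7.

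The genes most like Fth1 across the 12 dorDG types were named by the correlation of log2(mean UMIs per 10000 + 0.1) over 4247 genes, as a description. They were AABR06026863.1 (Pearson r = 0.98), Arhgdia (r = 0.93), Prdx1 (r = 0.93), a peroxiredoxin that removes hydrogen peroxide, Gatm (r = 0.91), an enzyme of creatine synthesis, and AABR06019789.1 (r = 0.91). AABR06026863.1 had 59.1 UMIs per 10000 in Oligodend2, and whether it shares reads with Fth1 was not tested. Most like Ftl1 were AABR06016949.1 (r = 0.96), the stress response genes Gadd45b (r = 0.95) and Herpud1 (r = 0.94), St3gal6 (r = 0.94), a sialyltransferase, and Sgk1 (r = 0.93), a kinase induced by glucocorticoids. Fth1 and Ftl1 were themselves less alike (r = 0.70) than Fth1 and Ftl1l1 (r = 0.86) or Ftl1 and Ftl1l1 (r = 0.84). The row most like Ftl1l1 was RGD1560687 (r = 0.99), and the light chain copy LOC100359668 was also close to it (r = 0.98). The points are means over the same libraries, so depth and the share of ribosomal-low cells are common to all these values.

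Other genes of iron handling were led by different types. Of 36 listed iron genes 9 reached a mean of 0.5 UMIs per 10000 over the types. Tf, the iron carrier transferrin, was highest in Oligodend2 with 66 ± 5.72 (SD, n = 7), as Fth1 was. Hmox1, which frees iron from heme, was highest in Microglia1 with 3.62 ± 2.34 (SD, n = 9), as the light chain rows were. Tfrc, the receptor that takes up transferrin-bound iron, was highest in Endothelial with 4.52 ± 1.88 (SD, n = 9), and Ncoa4, which delivers ferritin for degradation, in OPC with 1.8 ± 0.88 (SD, n = 7). Of 15 listed antioxidant genes 9 reached the same level. Prdx1 was highest in Oligodend1 with 14.8 ± 4.29 (SD, n = 9), and Sod2, a mitochondrial superoxide dismutase, and Gpx1, a glutathione peroxidase, in Microglia1 with 5.93 ± 2.26 and 3.35 ± 1.55 (SD, n = 9).

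The venDG cells were used to test the contrast between cell classes, since the choice of the genes named types in dorDG only. The study clustered cells of both regions together, so venDG cells had a part in making the dorDG types. No type labels came with the venDG cells, so they were clustered here with the rows of the 3 members left out. Clusters were named only by marker genes. The light chain copies and AABR06026863.1 were not left out, so rows that may share reads with the members could enter the clustering. Neuron-like cells, the reference, were the Excitatory-like and Inhibitory-like clusters (189 cells), and no cluster was Granule-like. Of 25 clusters, 3 stayed unnamed (256 cells) and 2 were set aside because they mixed markers, one of 28 cells with endothelial and mural markers and one of 83 cells with microglia and perivascular macrophage markers, a rule applied after the clusters were seen. Among the unnamed clusters, that of 58 cells had 2 excitatory and 2 inhibitory markers. That of 36 cells had 3 excitatory and 3 granule cell markers, so cells with neuronal markers also lay outside the reference. The share of cells set aside was 5.76% in FT and 4.82% in Sham.

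Fth1 was higher in all 5 tested glial and endothelial classes than in neuron-like cells of the same replicate. The mean level was 75.6 ± 11.4 UMIs per 10000 in Oligodendrocyte-like (SD, n = 10), 63.9 ± 4.92 in Microglia-like (SD, n = 10), 37.9 ± 12.1 in Astrocyte-like (SD, n = 9), 29.2 ± 7.34 in Endothelial-like (SD, n = 9), 17.4 ± 6.57 in OPC-like (SD, n = 9) and 15.2 ± 10.1 in neuron-like cells (SD, n = 9). Mural-like cells had 40 ± 9.55 (SD, n = 6) and were not tested. The unnamed cells, left out of the reference, had 28.6 ± 11.9 (SD, n = 9), above neuron-like and OPC-like cells and near Endothelial-like cells. The differences therefore hold against the named neuron-like clusters only. On the log2(UMIs per 10000 + 0.1) scale, the within-replicate difference from neuron-like cells was 2.53 ± 0.73 for Oligodendrocyte-like and 2.27 ± 0.78 for Microglia-like cells (SD, 9 of 9 replicates higher, adjusted p = 0.00977 each, exact two-sided sign-flip test, Benjamini-Hochberg over 15 tests). Astrocyte-like cells were higher by 1.35 ± 0.76 and Endothelial-like cells by 1.01 ± 0.52 (SD, 8 of 8 replicates, adjusted p = 0.0146 each, same exact test). For OPC-like cells the difference was small, 0.31 ± 0.36 (SD, 8 of 9 replicates, adjusted p = 0.0426, exact test), and it lost its call under 7 of the 10 omissions of a single replicate.

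Ftl1 was higher than in neuron-like cells in the microglia and oligodendrocyte classes. Microglia-like cells had 1.53 ± 0.613 Ftl1 UMIs per 10000 (SD, n = 10), from 0.619 to 2.59 with a median of 1.62. Neuron-like cells had 0.189 ± 0.114 (SD, n = 9), from 0.077 to 0.397 with a median of 0.142. The log2 difference was 2.43 ± 0.62 for Microglia-like and 1.65 ± 0.87 for Oligodendrocyte-like cells (SD, 9 of 9 replicates, adjusted p = 0.00977 each, exact test). Endothelial-like cells, at 1.12 ± 1.31 (SD, 6 of 8 replicates higher, adjusted p = 0.0541, exact test), OPC-like cells, at 0.23 ± 0.88 (adjusted p = 0.453, exact test), and Astrocyte-like cells, at -0.60 ± 0.85 (adjusted p = 0.1, exact test), did not pass. Ftl1l1, given without a test, was 7.19 ± 3.89 in Microglia-like, 4.08 ± 2.5 in Oligodendrocyte-like, 2.07 ± 1.71 in Endothelial-like, 1.13 ± 0.371 in OPC-like, 0.288 ± 0.239 in Astrocyte-like and 0.221 ± 0.181 in neuron-like cells (SD).

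The Fth1 share of ferritin UMIs was lower in Microglia-like than in neuron-like cells, with a mean difference of -7.97 ± 4.22 percentage points (SD, 9 of 9 replicates, adjusted p = 0.00977, exact test). The difference was -4.72 ± 2.31 in OPC-like (adjusted p = 0.00977), -4.67 ± 4.15 in Endothelial-like (adjusted p = 0.026) and -2.51 ± 2.69 in Oligodendrocyte-like cells (adjusted p = 0.0426, all exact tests). For Oligodendrocyte-like cells the call was lost under 6 of the 10 omissions of a single replicate, and without ribosomal-low cells the mean difference was 0.52. In Astrocyte-like cells it was 1.62 ± 2.07 (adjusted p = 0.0541, exact test). In all, 11 of 15 differences passed at 0.05.

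Ribosomal-low cells were 78.8% of neuron-like cells against 17.9% of Microglia-like, 30.4% of Oligodendrocyte-like, 49% of Astrocyte-like, 14.6% of OPC-like and 5.88% of Endothelial-like cells. Without them 4 replicates remained, for which the smallest exact p is 0.125, so no difference could pass. Fth1 was then still higher in 4 of 4 replicates in Microglia-like (1.78 ± 0.37), Oligodendrocyte-like (2.14 ± 0.28), Astrocyte-like (1.47 ± 0.23) and Endothelial-like cells (0.53 ± 0.34), while in OPC-like cells the difference turned to -0.23 ± 0.29. Ftl1 stayed higher in Microglia-like (2.16 ± 1.29) and Oligodendrocyte-like cells (1.32 ± 0.78) in 4 of 4 replicates.

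**Figure D2:**
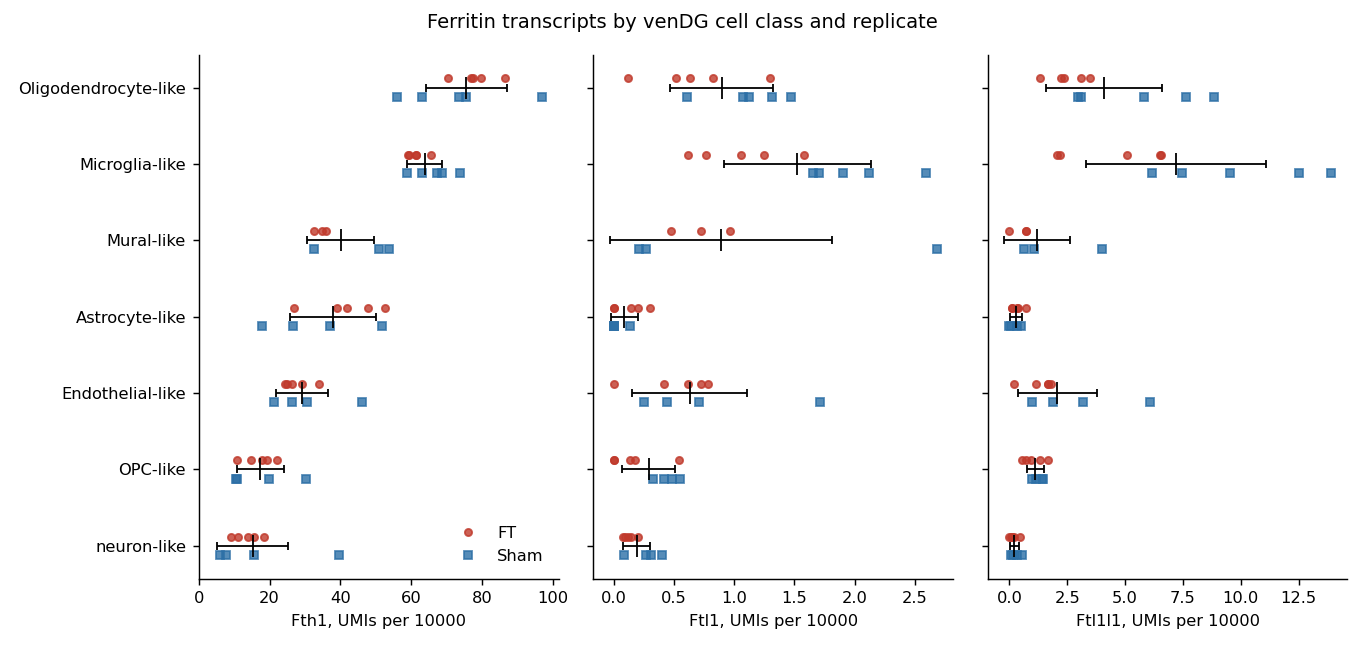
UMIs per 10000 of Fth1, Ftl1 and Ftl1l1 (horizontal axes, one panel each) in the venDG classes (vertical axis), with a point for each FT or Sham replicate of at least 5 cells and the mean ± SD over replicates. Oligodendrocyte-like cells led for Fth1 (75.6 ± 11.4) and Microglia-like cells for Ftl1 (1.53 ± 0.613) and Ftl1l1 (7.19 ± 3.89), with neuron-like cells near the low end in each panel.

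Ferritin was next compared between both reactions of one replicate, a label that the choice of the genes did not use. In the 8 first reactions Ftl1l1 ran from 1.61 to 11.5 UMIs per 10000 with a median of 4.11, and in the 8 second reactions from 0 to 0.222 with a median of 0.0513. Ftl1 ran from 0.531 to 2.94 (median 1.53) in the first and from 0 to 0.292 (median 0.109) in the second. Every second reaction was thus below every first reaction for both light chain rows. The share of all genes separated in this way was not counted, and 39.9% of genes were called lower in the second reaction (edgeR, below). The highest limit for a second reaction without an Ftl1l1 UMI was 0.247 per 10000 (dorDG FT replicate 1, 3 counts of 121356 UMIs).

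For Fth1 the ranges overlapped, from 46.7 to 90.5 (median 57.8) in the first and from 14 to 100.1 (median 25.6) in the second reactions. Fth1 was lower in the second reaction of 7 of 8 replicates. The exception was dorDG Sham replicate 2, which went from 90.5 to 100.1, and venDG Sham replicate 2 moved little, from 58.8 to 51.7. The Fth1 share of ferritin UMIs rose in 8 of 8 replicates, from between 85.7 and 95.6% to between 97.7 and 99.9%.

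With edgeR on reaction sums and the replicate as a block, all 3 members were called lower in the second reaction. The log2 fold change was -1.56 (SE 0.33, adjusted p = 0.000558) for Fth1, -4.34 (SE 0.33, adjusted p = 2.79e-08) for Ftl1 and -6.41 (SE 0.39, adjusted p = 5.31e-09) for Ftl1l1, with a median gene at 0.13. A call was an adjusted p of at most 0.2 and a log2 fold change of at least 0.32 in size. Of the 4378 genes tested, 84.1% were called in either direction, 39.9% as lower and 44.2% as higher in the second reaction. Scaled by library totals in place of TMM the median gene moved to 0.60 and the members to -1.09, -3.83 and -5.91, and all 3 kept their calls. By the exact two-sided sign-flip test over 8 replicates, the mean log2 differences were -1.09 ± 0.91 for Fth1 (SD, adjusted p = 0.0156), -3.05 ± 0.78 for Ftl1 and -4.87 ± 0.96 for Ftl1l1 (SD, adjusted p = 0.00977 each, from the smallest p that 8 replicates allow, 0.00781). The test counts the 8 replicates as independent. Same-numbered dorDG and venDG samples may be related, as those of Sham were taken to be, so these p-values may be too small.

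Other messages moved with ferritin between the reactions. Of 84 cytosolic ribosomal protein genes tested 83 were lower in the second reaction, with a median log2 fold change of -3.03, and all 8 of 8 tested genes of a list of abundant cytosolic messages, such as Actb and Tmsb4x, were lower, with a median of -3.38. Ftl1l1 and the light chain copy LOC100359668 (-5.92, SE 0.37) fell further than these medians, and Fth1 less. Of 9 iron genes tested 6 were lower and 2 higher in the second reaction, and 8 of 9 called is close to the 84.1% over all genes. The lower ones were Hmox1 (-5.15, SE 0.45), Tf (-3.62, SE 0.30), Ncoa4 (-1.70, SE 0.24), Isca1 (-1.39, SE 0.25) and Iscu (-1.14, SE 0.20), both of iron-sulfur cluster assembly, and Pcbp2 (-0.64, SE 0.20), which carries iron to ferritin. The higher ones were Aco1 (0.65, SE 0.19), which encodes iron regulatory protein 1 when it lacks its iron-sulfur cluster, and Fbxl5 (0.56, SE 0.23), part of the ligase that degrades iron regulatory proteins. Of 9 antioxidant genes 8 were lower, led by Prdx1 (-4.19, SE 0.23), Sod2 (-3.93, SE 0.21), Gpx1 (-3.16, SE 0.27), Gpx4 (-2.93, SE 0.32), the redox protein Txn1 (-2.91, SE 0.27) and Nfe2l2 (-2.64, SE 0.21), a regulator of antioxidant genes, and Slc7a11, a cystine transporter, was not called (0.79, SE 0.59). Which preparation each reaction held cannot be told from the labels.

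**Figure D3:**
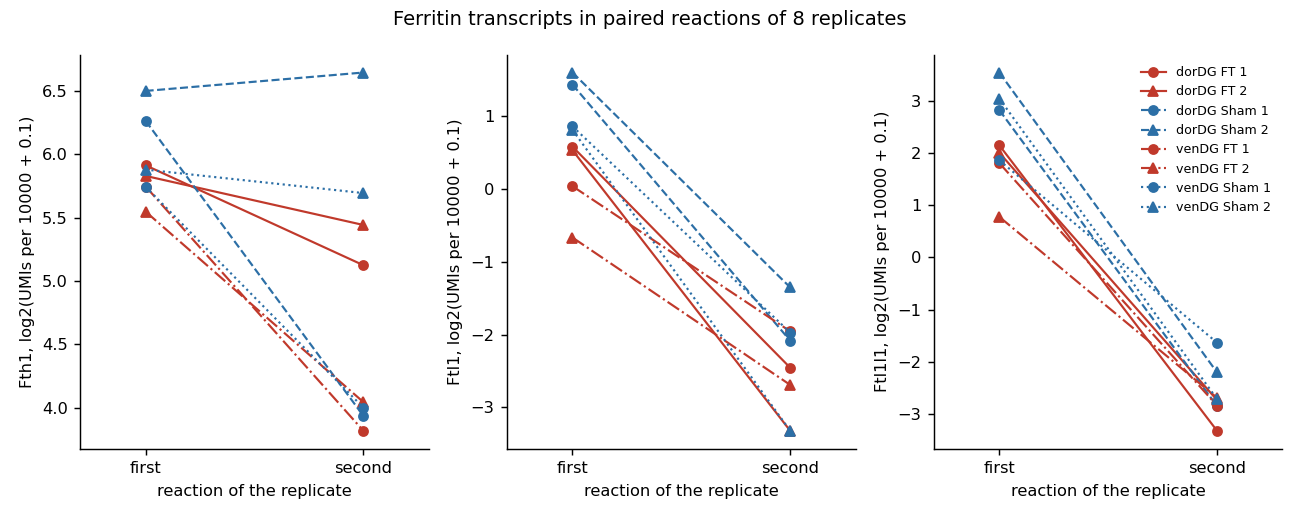
Fth1, Ftl1 and Ftl1l1 as log2(UMIs per 10000 + 0.1) (vertical axes, one panel each) in the first and the second reaction of 8 replicates (horizontal axis), each replicate joined by a line. Both light chain rows fell in 8 of 8 replicates, and Fth1 in 7 of 8, the exception being dorDG Sham replicate 2.

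The highest and lowest cell type were closer in Fth1 within second reactions. In the first reaction of dorDG FT replicate 2 the highest type (Microglia1, 108) was 4.08 times the lowest (OPC, 26.5), and in its second reaction the ratio was 1.4. In dorDG Sham replicate 1 it was 2.3 and 2.11. In venDG FT replicate 1 the ratio of highest to lowest class was 3.82 in the first and 1.46 in the second reaction, and in venDG FT replicate 2 it was 4.38 and 1.58. The ratio was smaller in the second reaction in all 7 replicates with at least 3 types there, although in 6 of these 7 fewer types could be compared there, which bears on a ratio of extremes.

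The exception of dorDG Sham replicate 2 was seen within single types. Oligodend1 went from 102 in the first to 14.2 in the second reaction of dorDG Sham replicate 1, but from 83.9 to 88.8 in replicate 2. Endothelial went from 53.2 to 26.7 in replicate 1 and from 53.7 to 113 in replicate 2. In the second reaction of replicate 2 all 4 types with at least 5 cells lay between 88.8 and 113, and the median cell had 95 Fth1 UMIs per 10000 against 84.2 in the first reaction. The largest single cell held 8.29% of the Fth1 UMIs of that reaction, so no one cell carried the value.

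Fluoxetine was compared with Sham on sums over all cells of a replicate, where more cells of a type and more RNA per cell cannot be told apart. The choice of the genes named this contrast, so levels and log2 fold changes describe it and no p of a member is read as a test. In dorDG the Fth1 level was 56.1, 53.8, 44.3 and 65.5 UMIs per 10000 in FT replicates 1, 2, 4 and 5, and 48.1, 93.3, 24.2, 24.5 and 41.7 in Sham replicates 1 to 5. Sham replicate 2 was the highest of all and Sham replicates 3 and 4 the lowest, so the groups overlapped, with means of 54.9 ± 8.69 (SD, n = 4) and 46.4 ± 28.3 (SD, n = 5).

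The dorDG light chain rows had the same shape. Ftl1l1 was 3.61, 3.04, 3.83 and 4.73 in FT replicates 1, 2, 4 and 5, and 3.73, 8.15, 0.775, 1.28 and 1.09 in Sham replicates 1 to 5. Ftl1 was 1.18, 1.05, 0.992 and 1.10 in FT, and 1.46, 2.16, 0.265, 0.279 and 0.130 in Sham. The FT replicates were close together, while Sham split into replicates 1 and 2, which had 2 reactions, and replicates 3 to 5, which had 1.

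None of the 3 members was called in dorDG, where edgeR called 28.6% of 4274 genes. The log2 fold changes of FT against Sham were 0.26 (SE 0.42) for Fth1, 0.31 (SE 0.62) for Ftl1 and 0.32 (SE 0.60) for Ftl1l1. Without Sham replicate 2 the values were 0.80 (SE 0.29), 1.02 (SE 0.52) and 1.24 (SE 0.42), and all 3 met the limits of a call, in a fit that called 23.3% of 4325 genes as higher in FT. A single replicate thus decided whether the limits were met.

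Within each kind of library the dorDG contrast pointed in opposite directions. Among first reactions Fth1 was 60.2 and 56.8 in FT replicates 1 and 2, below 76.8 and 90.5 in the Sham replicates of those numbers, and Ftl1l1 was 4.32 and 3.90 against 6.95 and 11.5. Second reactions were mixed for Fth1, with 34.8 and 43.4 in FT and 15.2 and 100.1 in Sham. Among replicates with 1 reaction Fth1 was 44.3 and 65.5 in FT, above 24.2, 24.5 and 41.7 in Sham, and Ftl1l1 was 3.83 and 4.73 against 0.775, 1.28 and 1.09. The share of ribosomal-low cells in the latter was 14.5 and 15.2% in FT and 72, 31.9 and 44.8% in Sham. Among dorDG cells with at least 2% ribosomal UMIs the log2 fold changes were -0.14 (SE 0.29) for Fth1, -0.16 (SE 0.68) for Ftl1 and -0.22 (SE 0.55) for Ftl1l1.

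In venDG, Fth1 differed little between the groups, while both light chain rows were lower in FT. Fth1 was 44, 38.7, 48.3, 38 and 49.4 in FT replicates 1 to 5 and 38.1, 56.8, 30.7, 41.2 and 48.6 in Sham, with means of 43.7 ± 5.26 and 43.1 ± 10 (SD, n = 5). Ftl1l1 was 2.58, 1.2, 1.01, 2.52 and 1.86 in FT and 2.17, 5.84, 4.04, 3.19 and 5.34 in Sham, with means of 1.83 ± 0.726 and 4.12 ± 1.51 (SD, n = 5). Ftl1 was 0.743, 0.406, 0.453, 0.626 and 0.335 in FT and 1.08, 1.19, 0.545, 0.809 and 1.11 in Sham, with means of 0.513 ± 0.168 and 0.948 ± 0.268 (SD, n = 5). For Ftl1l1 only Sham replicate 1 lay within the FT range, and for Ftl1 only Sham replicate 3 did.

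The venDG log2 fold changes were 0.01 (SE 0.22) for Fth1, -0.92 (SE 0.25) for Ftl1 and -1.19 (SE 0.31) for Ftl1l1, and -1.13 (SE 0.28) for the light chain rows summed. No gene of 4079 was called by edgeR (0%), although 236 had a p under 0.05 before adjustment. By DESeq2 there were 18 calls, 14 of them lower in FT (0.343% of genes tested), and Ftl1 (-0.93, SE 0.25) and Ftl1l1 (-1.20, SE 0.32) met its limits. The calls thus depended on the tool, whereas the fold changes differed by 0.01 between the tools. The light chain copy LOC100359668, not a member, had -1.24 (SE 0.35).

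Ftl1l1 was lower in FT among first reactions and among replicates with 1 reaction of venDG. Among first reactions Ftl1l1 was 3.39 and 1.61 in FT replicates 1 and 2 and 3.52 and 8.11 in Sham, and Ftl1 was 0.929 and 0.531 against 1.72 and 1.66. Among replicates with 1 reaction Ftl1l1 was 1.01, 2.52 and 1.86 in FT and 4.04, 3.19 and 5.34 in Sham. Neither set overlapped for Ftl1l1, although the nearest first reactions were 3.39 and 3.52. With 2 or 3 values per group many genes can separate by chance, and the share that did was not counted. Ftl1 overlapped in the latter, with 0.453, 0.626 and 0.335 in FT and 0.545, 0.809 and 1.11 in Sham. In second reactions few light chain UMIs were counted, and Ftl1 was 0.158 and 0.0549 in FT and 0.155 and 0 in Sham, and Ftl1l1 0.0396 and 0.0549 against 0.222 and 0.0523. Among venDG cells with at least 2% ribosomal UMIs the log2 fold changes were -0.10 (SE 0.14) for Fth1, -1.07 (SE 0.28) for Ftl1 and -1.38 (SE 0.33) for Ftl1l1.

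As a result the Fth1 share of ferritin UMIs in venDG was 94.8 ± 2.05% in FT, from 92.4 to 97.1%, and 89.5 ± 2.11% in Sham, from 87 to 92.1% (SD, n = 5). The groups did not overlap, and no background was counted for this separation. In dorDG it was 91.8 ± 1.16% in FT (SD, n = 4) and 93.5 ± 3.23% in Sham (SD, n = 5).

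**Figure D4:**
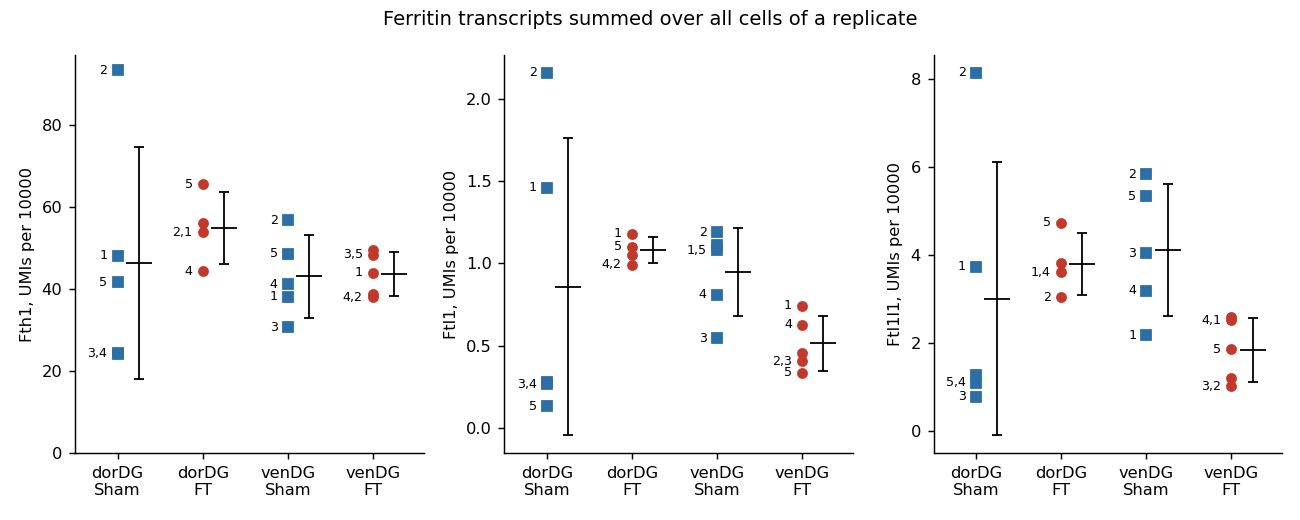
UMIs per 10000 of Fth1, Ftl1 and Ftl1l1 (vertical axes, one panel each) summed over all cells of a replicate in the 4 groups (horizontal axis), with a numbered point for each replicate and the mean ± SD. In dorDG, Sham replicate 2 stood above all others for Fth1 (93.3) and Ftl1l1 (8.15), and in venDG both light chain rows had lower means in FT.

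Within dorDG types no member was called in any of the 9 types that could be fitted, which had few calls over all genes. The background was 0.0232% of genes called in AstroSub1, 0.0581% in Microglia2, 6.15% in Oligodend1 and 0.029% in Oligodend2, and 0% in Endothelial, Granule, Microglia1, Mossy and OPC. In the latter 5 types edgeR gave 76 to 332 genes a p under 0.05 before adjustment, and DESeq2 also called 0. In Oligodend1, Fth1 was 78.2 ± 15.1 in FT (SD, n = 4) and 60 ± 23.3 in Sham (SD, n = 5), and the log2 fold changes were 0.45 (SE 0.28) for Fth1, 0.90 (SE 0.55) for Ftl1 and 0.61 (SE 0.36) for Ftl1l1. Among Oligodend1 cells with at least 2% ribosomal UMIs the value of Fth1 was -0.16. In Microglia1 the 3 values were 0.24, 0.11 and 0.09, in Oligodend2 -0.16, -0.04 and 0.13, and in Mossy -0.31, -0.52 and -1.0.

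The fold changes of Fth1 and Ftl1l1 differed in OPC and Granule, and those of Fth1 rested on Sham replicate 2. In OPC, Fth1 was 26.5 ± 8.75 in FT (SD, n = 4) and 45 ± 28 in Sham (SD, n = 3), at -0.70 (SE 0.36), while Ftl1l1 was at 0.69 (SE 0.46). Without Sham replicate 2 Fth1 was at -0.18 in OPC and at 1.26 in Granule. In Granule, Ftl1l1 was 1.36 ± 0.596 in FT (SD, n = 4) and 0.453 ± 0.408 in Sham (SD, n = 5), at 1.61 (SE 0.63), and Fth1 was at 0.16 (SE 0.67). Without the 9 Granule cells rich in hemoglobin transcripts, Ftl1l1 was 0.529 ± 0.538 in FT (SD, n = 3) and 0.276 ± 0.278 in Sham (SD, n = 5), and the groups overlapped.

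**Figure D5:**
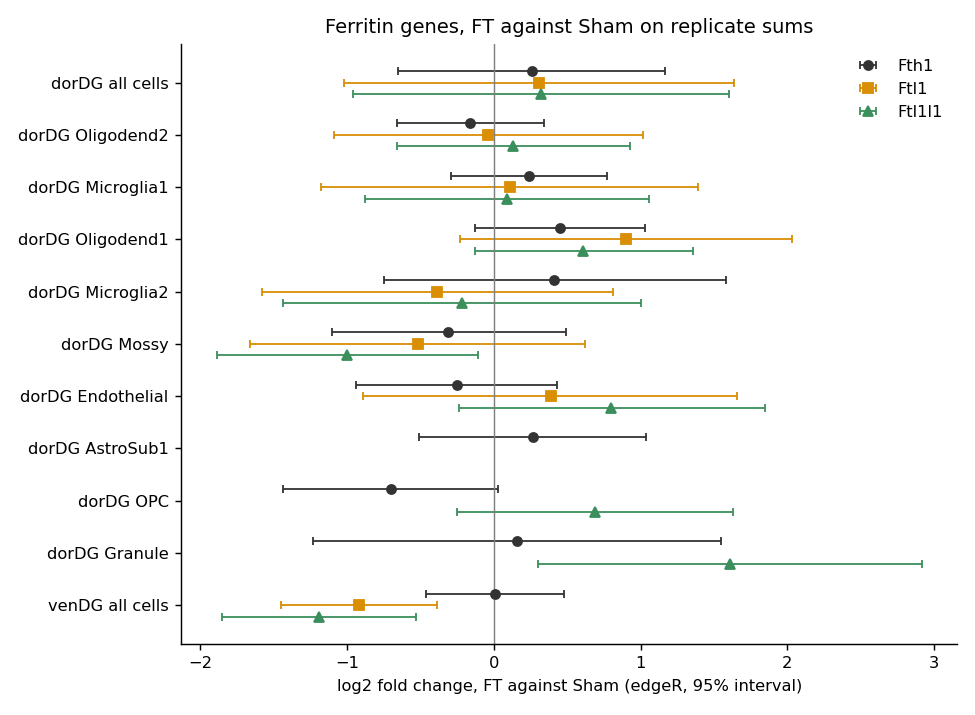
Log2 fold change of FT against Sham (horizontal axis) from edgeR with its 95% interval for Fth1, Ftl1 and Ftl1l1 in all cells of each region and in each dorDG type that could be fitted (vertical axis). In venDG Ftl1 was at -0.92 and Ftl1l1 at -1.19, and among dorDG types Ftl1l1 was highest in Granule (1.61) and lowest in Mossy (-1.0). No member was called where it was fitted, and the intervals are unadjusted and not read as tests. The Granule difference was smaller without the cells rich in hemoglobin transcripts.

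Mean light chain levels were lower in FT in most venDG classes, as a description with no test. In Microglia-like cells Ftl1 was 1.3, 0.763, 0.619, 1.06 and 1.58 UMIs per 10000 in FT replicates 1 to 5 and 2.59, 2.12, 1.65, 1.70 and 1.90 in Sham. The groups did not overlap (1.06 ± 0.386 and 1.99 ± 0.383, SD, n = 5), which among 2931 genes was so for 0.546% with Sham above FT. Ftl1l1 was 6.52, 2.04, 2.20, 6.54 and 5.07 in FT and 6.17, 12.5, 13.9, 7.46 and 9.52 in Sham, where only Sham replicate 1 reached into the FT range. Fth1 was 61.4 ± 2.64 in FT and 66.3 ± 5.65 in Sham (SD, n = 5).

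Other classes had lower means in FT with few UMIs per replicate. Ftl1l1 was 1.3 ± 0.656 in FT and 3.04 ± 2.23 in Sham in Endothelial-like cells and 0.48 ± 0.416 and 1.91 ± 1.84 in Mural-like cells (SD). Ftl1 was 0.169 ± 0.221 and 0.443 ± 0.098 in OPC-like cells and 0.127 ± 0.0491 and 0.267 ± 0.13 in neuron-like cells (SD). Astrocyte-like cells had the opposite order, with Ftl1 at 0.129 ± 0.13 in FT and 0.0346 ± 0.0692 in Sham (SD).

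The same 4 clusters held the Microglia-like cells in both groups, in similar shares, from 19.5 to 36% in FT and from 16.1 to 36.4% in Sham. Pooled over replicates, Ftl1 was lower in FT in each of them, at 0.5 against 1.17, 0.477 against 0.875, 0.963 against 2.25 and 1.38 against 2.41. Ftl1l1 was lower in 3 of these 4, the exception being a cluster of mostly ribosomal-low cells (1.81 against 1.05).

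In Oligodendrocyte-like cells Ftl1l1 was 3.10, 2.35, 1.31, 3.49 and 2.24 in FT replicates 1 to 5 and 2.95, 8.85, 7.64, 3.10 and 5.83 in Sham, with means of 2.5 ± 0.843 and 5.67 ± 2.65 (SD, n = 5), and the groups overlapped. Fth1 was 78.2 ± 5.87 and 73 ± 15.6. The clusters behind this class differed between the groups, since a cluster of 97 cells, nearly all ribosomal-low, held 10.6% of them in FT and 42.7% in Sham. In the other 2 clusters of the class the pooled Ftl1l1 level was 2.49 and 1.71 in FT and 7.96 and 3.35 in Sham.

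Between the regions no member was called with all replicates and no block. In Sham, the dorDG against venDG log2 fold changes were 0.10 (SE 0.32) for Fth1, -0.13 (SE 0.50) for Ftl1 and -0.42 (SE 0.50) for Ftl1l1, with 1.83% of 4161 genes called by edgeR. In FT they were 0.33 (SE 0.34), 1.07 (SE 0.52) and 1.07 (SE 0.52), with 0% of genes called. The difference of the treatment effect between dorDG and venDG was 0.22 (SE 0.47), 1.19 (SE 0.72) and 1.49 (SE 0.72), also with 0% of genes called. In these fits 163 and 394 genes had a p under 0.05 before adjustment. The fits above left out any pairing by replicate number. With a replicate block, which treats the dorDG and venDG samples of one number as a pair, 503 genes met the limits in Sham, against 76 without it. The treatment difference of Ftl1l1 was then 1.85 (SE 0.64) and met the limits of a call, as 428 genes did. The treatment differences of Fth1 (0.49) and Ftl1 (1.57) did not. Without dorDG Sham replicate 2 the treatment differences were 0.73, 1.86 and 2.37, with those of Ftl1 and Ftl1l1 among 335 genes that met the limits, and Ftl1l1 in Sham was -1.30, among 481 genes that did. These contrasts use the same replicates as the comparisons within each region and are not separate evidence.

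Among other iron genes, few moved with fluoxetine. In dorDG, 1 of the 10 iron genes tested was called, Ncoa4, higher in FT (0.60, SE 0.26, adjusted p = 0.185, edgeR), and the median of the list was 0.33 against -0.04 for all genes. Of 8 antioxidant genes 2 were called, both higher in FT, Gpx4 (0.99, SE 0.37, adjusted p = 0.17), which removes lipid peroxides, and Gpx1 (0.63, SE 0.26, adjusted p = 0.18), with a list median of 0.53. Over all genes 12.4% were called as higher in FT in this fit. The calls in both lists were lost with a replicate block (0 of 10 and 0 of 8) and under several omissions of a single replicate. The list of abundant cytosolic messages moved alike, with 2 of 8 called higher and a median of 0.61. Among dorDG cells with at least 2% ribosomal UMIs none of these was called and the medians were -0.14, -0.02 and 0.06. In venDG, 0 of 8 iron genes and 0 of 9 antioxidant genes were called by edgeR or DESeq2, with medians of 0.18 and 0.11 against -0.01. The most abundant of them there were Tf (0.51, SE 0.35), Tfrc (-0.29, SE 0.28) and Hmox1 (-0.27, SE 0.35), and Prdx1 (0.36, SE 0.29), Txn1 (0.11, SE 0.23) and Sod1 (0.36, SE 0.19).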

How the data were processed

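Per the labels, libraries were made with the 10x Genomics 3′ v2 chemistry. The submitters' processing notes name Cell Ranger 2.1.0, Seurat 3 and the rat build rn5. The values used are the deposited UMI counts per gene and cell, and the authors' deposited type names of dorDG cells. The study had set limits on genes, UMIs and mitochondrial share and removed a cluster rich in hemoglobin. No doublet caller was run here. Of 3517 cell columns, 170 whose names carried a further suffix after the reaction name were not used. No per-sample depth beyond the summed UMIs (220162 to 1523537 per replicate) was used, and limits from 3 counts cover counting error only.

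Counts were summed per replicate, type or reaction. Sums were fitted with edgeR 4.0.16 (quasi-likelihood test, TMM, R 4.3.3) for genes that averaged 0.5 UMIs per 10000 or more. As in the study, calls needed an adjusted p (Benjamini-Hochberg) no higher than 0.2 and a log2 fold change of 0.32 or more in size. DESeq2 1.42.0 was an alternative, with other scalings, filters, cell limits and single replicates left out. The fits and exact tests were tested on simulated data. The venDG cells were clustered with scanpy 1.11.5 (Leiden) without the ferritin rows. Replicates with under 5 cells of a class were left out. Exact sign-flip tests used differences within a replicate.

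The members and all gene and marker lists were chosen with earlier results of these data known. Named genes were the members, list genes that passed a call (up to 6 by size, otherwise the 3 most abundant) and the 5 genes most correlated with Fth1 and with Ftl1 across dorDG types. Values named beyond this rule (Pcbp2, Fbxl5 and Slc7a11 between reactions, list genes by leading type, Ftl1l1-like rows, light chain copies, cytosolic messages, the Granule split) were chosen after their values were seen.

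Same-numbered samples were compared by the correlation of their deviations from the group mean. It was 0.20 to 0.55 for dorDG with venDG Sham, all above 0.1, so these were taken as pairs, though only in the fits with a replicate block. It was 0.09 to 0.34 for dorDG with venDG FT, and -0.21 to 0.36 for FT with Sham in dorDG and -0.15 to 0.27 in venDG, which share only a number. P-values measure the spread between pools of animals.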

Additional observations from a re-analysis of the deposited data

Results flagged for a closer look

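In 9 of 111 groups of 4 to 10 samples, 1 sample lay far from the rest by Dixon's test. Chance flags about 1 in 20 groups. In dorDG Sham, replicate 2 stood above the other replicates for Fth1 in Endothelial (95.7 UMIs per 10000) and in Granule (77.3), and its second reaction stood above the other 7 second reactions for Fth1 (100.1). In dorDG FT, replicate 4 stood below the others for Fth1 in Endothelial (27.7), for Fth1 in Granule (14.4) and for Ftl1l1 in Oligodend2 (3.97), and above them for Ftl1 in Endothelial (1.51). Replicate 5 of dorDG FT stood above the others for Ftl1l1 in AstroSub1 (0.651), and replicate 1 of venDG Sham for Ftl1 in Astrocyte-like cells (0.138). Most of the light chain values rest on few UMIs per replicate and type.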

How the results depend on the processing

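The fall of all 3 members in the second reaction kept its direction and its call under every scaling, filter and omission tried, with ranges over single omitted replicates of -1.73 to -1.36 for Fth1, -4.52 to -4.17 for Ftl1 and -7.11 to -6.10 for Ftl1l1. Genes called there numbered 3611 to 3710, with 8 to 10 iron and 8 to 9 antioxidant genes, and without a filter 9724 genes and 14 iron genes were called. Without a replicate block the values were -1.24, -4.31 and -6.50.

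The fluoxetine contrast was less stable in dorDG. Over single omissions Fth1 ran from 0.07 to 0.80, Ftl1 from 0.03 to 1.02 and Ftl1l1 from 0.05 to 1.24, the highest in each case without Sham replicate 2. With reaction order as a covariate, using only the replicates with 2 reactions, the values were -0.64, -1.31 and -1.34. From 1221, the genes called moved to 1849 by DESeq2, 207 without a filter, 599 with the cell limits in the study's methods, 23 in ribosomal-low cells and 0 in the other cells, with reaction order or with a replicate block, and ranged from 0 (without FT replicate 4, FT replicate 5, Sham replicate 3 or Sham replicate 5) to 2022 (without Sham replicate 2). Iron genes called, 1 at first, were 0 without a filter or with the block and 0 to 2 over omissions. Antioxidant genes, 2 at first, were 4 by DESeq2, 0 without a filter or with the block, and 0 to 6 over omissions.

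In venDG, Fth1 was -0.33 in ribosomal-low cells, -0.63 with reaction order and -0.09 to 0.13 over omissions. Ftl1 stayed between -1.07 and -0.80 and Ftl1l1 between -1.36 and -1.02 over omissions, and with the block they were -0.89 and -1.19. Genes called were 18 by DESeq2, 3 without a filter and 0 under every omission.

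Between regions in Sham the omissions gave -0.39 to 0.28 for Fth1, -0.79 to 0.16 for Ftl1 and -1.30 to -0.17 for Ftl1l1, and 0 to 481 genes called. In FT they gave 0.22 to 0.40, 0.95 to 1.23 and 0.92 to 1.22, with 0 to 1 gene called. The treatment difference ran from 0.05 to 0.73, from 0.91 to 1.86 and from 1.24 to 2.37, with 0 to 335 genes called. Pairing by replicate block gave 503 genes in Sham, 2 in FT and 428 for the treatment difference, and cells with at least 2% ribosomal UMIs gave 0 in Sham.

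Of the venDG class differences 8 to 12 passed over omissions and 0 without ribosomal-low cells, where the Fth1 share in Oligodendrocyte-like cells (0.52) and Fth1 (-0.23) and Ftl1 (-0.61) in OPC-like cells changed sign. The cause of these changes was not tested, except that the last setting has too few replicates to pass. Of 105 alternative levels by type 102 moved by less than 1 SD, and light chain levels of single types rest on few UMIs.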
